A study of Mus musculus with 12 samples.

Results

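The D-type cyclins, the kinases they activate, the retinoblastoma gene and the inhibitors of these kinases were examined in thymic T-cell lymphomas of mice. Of 9 genes listed by symbol, 8 were matched by Ensembl identifier to the 37991 genes of the count table, and all 8 were among the 18612 that passed the filter on low counts. They are Ccnd1, Ccnd2, Ccnd3, Cdk4, Cdk6, Rb1, Cdkn1b and Cdkn2c, and Cdkn2d was not analysed here. The set was selected on function and on the measured level of Ccnd2, which was already known to be far lower in non-responders, so the members' differences between groups are given as values without a test.

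RNA-seq was available for 12 whole tumours, 4 labelled non-responder and 8 labelled responder, with 1 library each. All 12 came from C57BL/6 mice of the genotype p53neo/R172H;R26CreER/GNZ, so both groups carried the same mutant p53 allele, and all were given tamoxifen weekly, which activates Cre and thereby restores wild-type p53. The response label rests on the last magnetic resonance scan, after which the tumour was taken. No tumour was untreated, the labels give no age or batch, and the R26 locus is active in most cell types, so restoration need not be limited to T cells. The comparison asks which transcripts differ between tumours that resisted restoration and tumours that responded to it.

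D-type cyclins bind the kinases CDK4 and CDK6 in early G1 phase, and the complexes phosphorylate the retinoblastoma protein RB1, which then releases E2F factors that switch on genes of DNA synthesis. INK4 proteins such as the product of Cdkn2c bind the kinases and keep the cyclins away, while the product of Cdkn1b, p27, acts chiefly on CDK2 complexes. In the mouse thymus, cyclin D3 is the D cyclin that immature thymocytes need to expand after pre-TCR signalling, and loss of Ccnd3 or Cdk6 protects mice from NOTCH1-driven T-cell leukaemia.

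Libraries held 20796860 to 24393524 counts in non-responders and 23808086 to 30265753 in responders. Levels are in CPM, the count relative to the library total after scaling by the trimmed mean of M values (TMM). The tumours carried T-cell transcripts: the summed level of 10 T-cell markers was 2561 to 3226 CPM in non-responders and 893 to 3046 CPM in responders, and Lck, the kinase of the T-cell receptor, had the highest mean of them over the 12 tumours, at 587 to 876 CPM in non-responders and 39.8 to 821 CPM in responders. Rag1, the recombinase gene of immature cortical thymocytes, was at 168 to 1756 CPM in all 4 non-responders and in 3 responders (responders 1, 2 and 3), and at 0.410 to 2.91 CPM in the other 5 responders. The tumours thus fell into separate clusters on Rag1, and no correlation with it was computed over all of them. In bulk tumours, fewer cells of a type and less RNA per cell cannot be told apart.

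Of the members, Ccnd2 was the most variable gene across the 12 tumours and Cdkn1b the least. The standard deviation (SD) of log2 CPM was 2.40 for Ccnd2, wider than in 98.6% of all tested genes, followed by 1.29 for Cdk6 and 1.10 for Ccnd1. It was 0.47 for Cdk4 and 0.42 for Cdkn1b, below the median of 0.57 over all tested genes. From the lowest to the highest tumour, Ccnd2 spanned 104-fold, Cdk6 18.5-fold, Ccnd1 10.9-fold, Ccnd3 5.23-fold, Rb1 5.02-fold, Cdkn2c 4.45-fold, Cdk4 3.28-fold and Cdkn1b 2.70-fold. None of the 8 genes separated the groups without overlap, where 2.13% of all tested genes did, 0.951% with all non-responders higher and 1.18% with all non-responders lower. The log2 fold change, non-responder minus responder, was above 0 for 5 of the 8 and below 0 for 3. Of all 18612 genes 9023 were above 0. The median was 0.20 for the members and -0.02 for all 18612 genes.

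**Figure D1:**
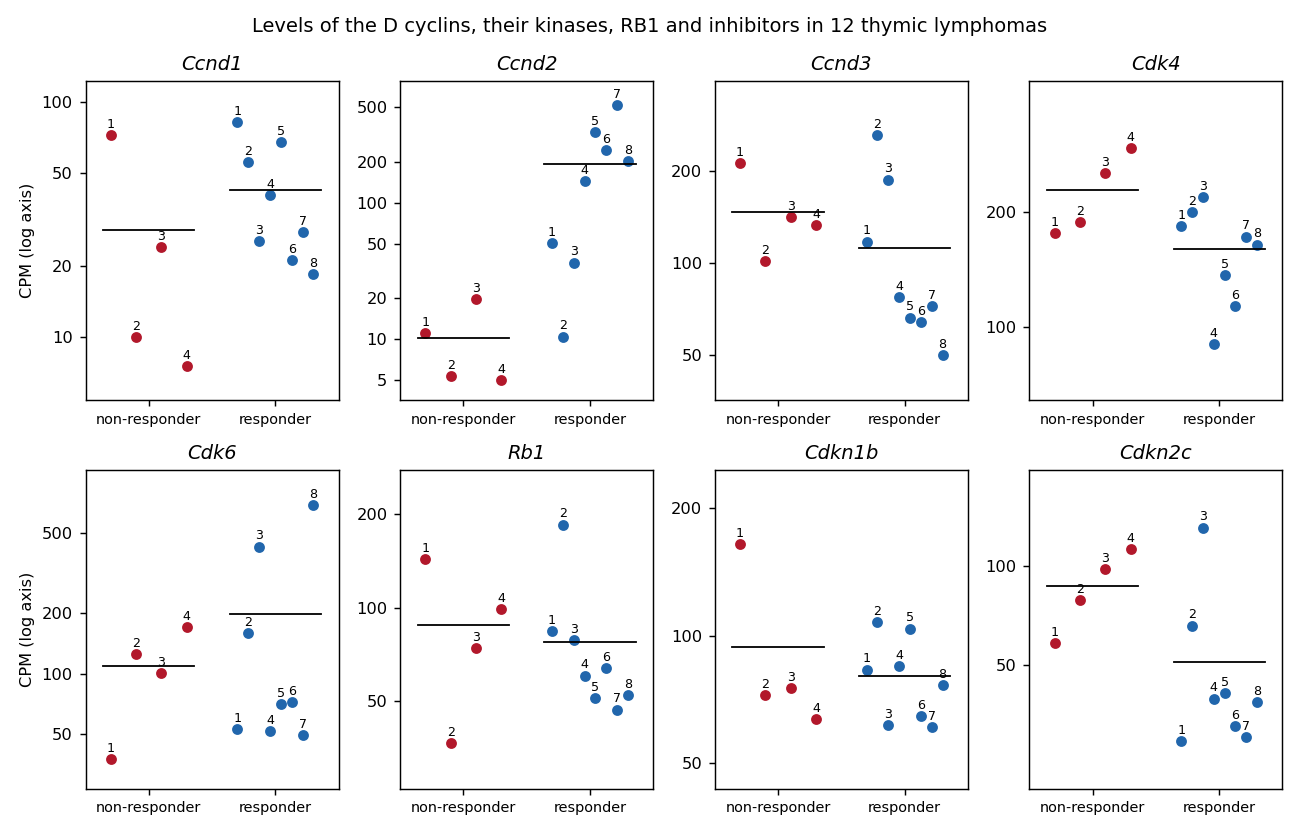
Level of each of the 8 genes in each tumour, in CPM on a log axis that differs between panels. Points are tumours with their number, non-responders at the left and responders at the right, and bars are group means. Ccnd2 lies at 4.99 to 19.6 CPM in the 4 non-responders and at 143 to 520 CPM in responders 4 to 8, with responders 1, 2 and 3 between 10.4 and 50.7 CPM.

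Ccnd2 (ENSMUSG00000000184, chr6:127125162-127152193 on the minus strand of GRCm38), a D cyclin that growth-factor and cytokine signals induce in lymphocytes, was low in all 4 non-responders and varied widely among responders. It had 11.1, 5.35, 19.6 and 4.99 CPM in non-responders 1 to 4, against a lowest value of 10.4, a median of 173 and a highest value of 520 CPM in the 8 responders. Of the responders, 7 were above all non-responders, while responder 2, at 10.4 CPM, lay within the range of the non-responders. The group means were 10.3 ± 6.85 CPM in non-responders (SD, n = 4) and 192 ± 172 CPM in responders (SD, n = 8), a log2 fold change of -4.22 (SE 0.99). Responders 1, 2 and 3, in which Rag1 was at 895 to 1262 CPM, had Ccnd2 at 50.7, 10.4 and 36.4 CPM. In responders 4 to 8, in which Rag1 was below 3 CPM, Ccnd2 was at 143, 328, 244, 520 and 202 CPM. A score of 13 genes of double-positive thymocytes, which carry CD4 along with CD8, was then added as a covariate, and it includes Rag1. The log2 fold change was -1.73 with it. Exons of Ccnd2 share 368 and 372 bases with a pair of antisense genes, which were not analysed here.

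Transcripts of other cells are given here beside Ccnd2. None of their markers was called by edgeR, which called 0% of all 18612 genes. At an unadjusted p under 0.05 in edgeR were 9 of 10 neutrophil, 7 of 8 B-cell and 6 of 9 endothelial genes. So were 9 of 9 muscle, 7 of 7 adipocyte and 6 of 7 erythroid genes that were tested. Macrophage, fibroblast and thymic epithelial genes gave 4 of 10, 3 of 9 and 5 of 10, and all tested genes gave 23.8%. The summed level of neutrophil genes was 13.8 to 31.5 CPM in non-responders and 30.7 to 707 CPM in responders. B-cell genes summed to 17.3 to 81.7 CPM in non-responders and 26.6 to 477 CPM in responders. Endothelial genes summed to 110 to 166 CPM in non-responders and 164 to 626 CPM in responders. The tested genes of the neutrophil, B-cell, endothelial, muscle, adipocyte and erythroid lists all had fold changes below 0. So did 8 of 10 macrophage, 5 of 9 fibroblast and 9 of 10 thymic epithelial genes, where 9589 of all 18612 genes did. Muscle genes summed to 9.59 to 24.3 CPM in non-responders and 16.5 to 554 CPM in responders, adipocyte genes to 38.1 to 60.8 CPM in non-responders and 48.8 to 1529 CPM in responders, and erythroid genes to 13.7 to 295 CPM in non-responders and 122 to 2302 CPM in responders. Macrophage genes summed to 1086 to 3345 CPM in non-responders and 836 to 3335 CPM in responders, fibroblast genes to 699 to 1471 CPM in non-responders and 337 to 1684 CPM in responders, and thymic epithelial genes to 36.1 to 257 CPM in non-responders and 78.3 to 323 CPM in responders. All 9 sums overlapped between the groups, and no marker was at 0 in all 12 tumours. With the mean score of the 9 lists as a covariate the log2 fold change of Ccnd2 was -3.66. The part of other cells in the difference was not tested further.

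Ccnd3 (ENSMUSG00000034165, chr17:47505051-47599691, plus strand), the D cyclin of expanding immature thymocytes, was high in the tumours in which Ccnd2 was low. It had 212, 101, 141 and 133 CPM in non-responders, against 49.99, 74.9 and 261 CPM as the lowest, median and highest value in responders. The groups overlapped, since responders 2 and 3, at 261 and 187 CPM, and responder 1, at 117 CPM, were above the lowest non-responder, while responders 4 to 8 were below all non-responders, at 49.99 to 77.3 CPM. The means were 147 ± 46.7 CPM in non-responders and 112 ± 74.6 CPM in responders (SD, n = 4 and 8), with a log2 fold change of 0.39 (SE 0.42). That value was 0.16 without non-responder 1, 0.70 without responder 2 and 0.78 in limma-voom with quality weights. It turned to -0.39 with the double-positive thymocyte score and to -0.41 with the mean score of other cells as a covariate.

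Ccnd1 (ENSMUSG00000070348, chr7:144929931-144939925, minus strand), the D cyclin of most adherent cell types and scarce in normal lymphocytes, was detected in every tumour. It had 72.3, 10.004, 24.2 and 7.54 CPM in non-responders, against 18.6, 34.1 and 82.2 CPM as the lowest, median and highest value in responders. Non-responder 1 was exceeded by responder 1 alone, and the groups overlapped widely, with 7 of 8 responders within the range of non-responders. Its log2 fold change of -0.57 (SE 0.59) was -1.60 without non-responder 1, -0.28 without non-responder 2, -0.25 without non-responder 4 and -0.36 without responder 1. It was -1.08 in limma-voom, -1.32 with the double-positive thymocyte score and -0.35 with the mean score of other cells as a covariate. Exons of Ccnd1 overlap those of a gene annotated as LTO1 on the opposite strand over 1100 bases. LTO1 itself was at 14.2 ± 4.10 CPM in non-responders and 13.1 ± 1.32 CPM in responders (SD, n = 4 and 8), and reads in the overlap cannot be assigned without knowing how strand was handled in counting. Ccnd3 shares 361 exonic bases with Bysl in the same way, at 37.5 CPM on average in both groups.

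To compare the 3 cyclins with each other, CPM were divided by the length of the merged exons in kilobases. Ccnd3 made up the largest part of the D-cyclin sum in 4 of 4 non-responders and in responders 2 and 3, Ccnd2 in responders 4 to 8, and Ccnd1 in responder 1. Because the shares are parts of a single sum, a low Ccnd2, on which the set was selected, raises the shares of Ccnd1 and Ccnd3. In non-responders 1 to 4, Ccnd3 was 59.4%, 81.1%, 68.9% and 87.7% of the sum, against 11.9%, 23.2% and 69.7% as the lowest, median and highest share in responders. Ccnd2 was 2.89%, 3.99%, 8.97% and 3.07% in non-responders, against 2.59%, 54.1% and 79.6% in responders. Only responder 2 had a Ccnd2 share as low as the non-responders, since responders 1 and 3 stood at 14.9% and 12.6%. Ccnd1 was 37.7%, 14.9%, 22.1% and 9.26% in non-responders and 8.54% to 48.2% in responders. With the longest transcript as the length, Ccnd3 was the largest in responder 1 as well.

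Taken alone, Ccnd1 and Ccnd3 each overlapped between the groups. The summed level of the 3 cyclins includes Ccnd2, on whose level the set was selected. That sum overlapped between the groups only through non-responder 1. It was 40.7, 14.3, 23.3 and 17.3 CPM per kilobase in non-responders, against 30.6, 37.0 and 69.4 CPM per kilobase as the lowest, median and highest sum in responders. Non-responders 2, 3 and 4 were below every responder, which is not independent of that selection. In non-responder 1, Ccnd1 and Ccnd3 were both high.

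**Figure D2:**
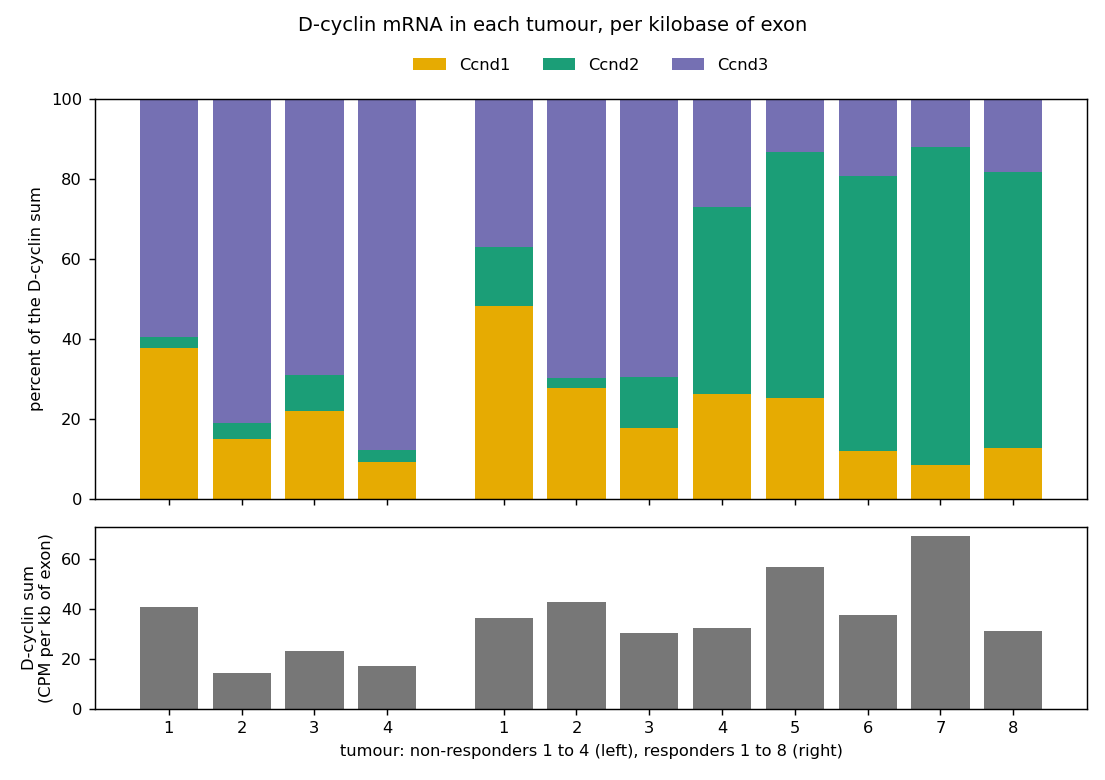
Share of each D cyclin in the sum of the 3 (upper panel, percent) and that sum (lower panel, CPM per kilobase of merged exon) in each tumour, non-responders 1 to 4 at the left and responders 1 to 8 at the right. Ccnd3 is the largest part in the 4 non-responders and in responders 2 and 3, and Ccnd2 in responders 4 to 8 with 46.8% to 79.6%.

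Cdk4 (ENSMUSG00000006728, chr10:127063534-127067920, plus strand), which encodes the kinase partner shared by all D cyclins, was the most abundant member per kilobase in the mean of the 12 tumours and one of the least variable. It had 176, 188, 254 and 295 CPM in non-responders, against 89.9, 169 and 219 CPM as the lowest, median and highest value in responders. Non-responders 3 and 4 were above all responders and non-responders 1 and 2 were within their range. A log2 fold change of 0.51 (SE 0.24) resulted, which moved to 0.19 with the double-positive thymocyte score and to 0.014 with the mean score of other cells as a covariate. Exons of Cdk4 overlap those of Tspan31 on the opposite strand over 641 bases, and Tspan31 was at 10.1 ± 6.50 CPM in non-responders and 10.4 ± 4.15 CPM in responders.

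Cdk6 (ENSMUSG00000040274, chr5:3341485-3531008, plus strand), the other kinase partner, was far higher in a pair of responders than elsewhere. It had 37.4, 126, 101 and 171 CPM in non-responders, against 49.6, 71.5 and 692 CPM as the lowest, median and highest value in responders. Responders 8 and 3, at 692 and 430 CPM, were above all other tumours, and the other 6 responders lay within the range of non-responders. Its log2 fold change of -0.86 (SE 0.80) was -0.22 without responder 8 and -0.57 without non-responder 1, and it was 0.03 in limma-voom with quality weights. With the mean score of other cells as a covariate it was -2.19. Per kilobase, Cdk6 was 4.70% to 13.4% of the sum of both kinases in non-responders and 6.25% to 49.4% in responders, with the highest share in responder 8, where Cdk6 and Cdk4 were nearly equal, and 31.3% in responder 3.

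For the 2 kinase genes, 250 bases before a RefSeq start are shown. Theirs were the only windows among those of the listed genes that held a match to the patterns described below. A link between these letters and the levels or spread of either gene was not tested. The sequences are from RefSeq on GRCm38.p6, on the plus strand, at chr10:127063285-127063534 for Cdk4 and chr5:3343643-3343892 for Cdk6. The RefSeq start of Cdk6 lies downstream of the GENCODE gene start given above, so its window falls within the GENCODE gene. Capitals mark matches to CACGTG, the E-box bound by MYC and related factors, and to TTTNNCGC, searched on both strands. The latter is a loose pattern for an E2F site, since N stands for any base.
Cdk4: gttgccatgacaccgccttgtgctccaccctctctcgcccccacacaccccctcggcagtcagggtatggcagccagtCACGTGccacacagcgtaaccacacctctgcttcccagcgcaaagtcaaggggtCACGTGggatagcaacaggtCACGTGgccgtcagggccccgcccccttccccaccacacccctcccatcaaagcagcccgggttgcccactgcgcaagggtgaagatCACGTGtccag
Cdk6: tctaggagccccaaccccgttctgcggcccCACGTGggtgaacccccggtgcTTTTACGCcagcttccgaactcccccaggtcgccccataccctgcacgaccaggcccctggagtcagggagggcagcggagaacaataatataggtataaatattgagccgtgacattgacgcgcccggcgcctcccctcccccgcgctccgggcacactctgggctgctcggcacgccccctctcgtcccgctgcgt
The window of Cdk4 held 4 E-boxes and no E2F match, and that of Cdk6 held 1 of each, without overlap. Of 32851 such windows in the RefSeq table, 6.02% held at least 1 E-box and 7 held at least 4, while 4.28% held the E2F letters. The letters GTGGGAA, a site of the NOTCH partner CSL, were in neither window and in 5.42% of all. The table held windows for 6 of the 9 listed genes, and in those of Ccnd3, Cdkn1b, Cdkn2c and Cdkn2d none of the 3 patterns was found. A match describes the letters and not a bound site.

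Rb1 (ENSMUSG00000022105, chr14:73183673-73325822, minus strand), the gene of the protein that CDK4 and CDK6 phosphorylate, was expressed in all tumours with wide overlap of the groups. It had 143, 36.7, 74.0 and 98.6 CPM in non-responders, against 47.1, 62.3 and 184 CPM as the lowest, median and highest value in responders. Non-responder 2 was the lowest and responder 2 the highest of the 12. Its log2 fold change of 0.18 (SE 0.40) turned to -0.15 without non-responder 1, and to -0.48 and -0.42 with the double-positive thymocyte score and the mean score of other cells as a covariate. Its exons overlap Rcbtb2 over 488 bases and Lpar6 over 408 bases, both on the opposite strand, so its level is uncertain to that extent. Rcbtb2 was at 90.6 ± 30.1 CPM in non-responders and 113 ± 86.6 CPM in responders, and Lpar6 at 36.4 ± 31.3 CPM in non-responders and 26.8 ± 19.3 CPM in responders.

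Of the inhibitors, Cdkn2c was above most responders in every non-responder, and Cdkn1b varied little. Cdkn2c (ENSMUSG00000028551, chr4:109660876-109667189, minus strand), which encodes the INK4 inhibitor p18, had 58.1, 78.5, 97.8 and 112 CPM in non-responders, against 29.4, 39.0 and 131 CPM as the lowest, median and highest value in responders. All but responders 2 and 3, at 65.8 and 131 CPM, were below the non-responders. The log2 fold change was 0.77 (SE 0.38), between 0.62 and 1.13 with 1 tumour left out, 1.16 in limma-voom, and 0.28 and 0.16 with the double-positive thymocyte score and the mean score of other cells as a covariate.

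Cdkn1b (ENSMUSG00000003031, chr6:134920401-134925513, plus strand) had 164, 72.4, 75.3 and 63.7 CPM in non-responders, against 61.0, 79.8 and 108 CPM as the lowest, median and highest value in responders. Apart from non-responder 1, all tumours lay between 61.0 and 108 CPM. The log2 fold change of 0.22 (SE 0.26) turned to -0.19 without non-responder 1.

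**Figure D3:**
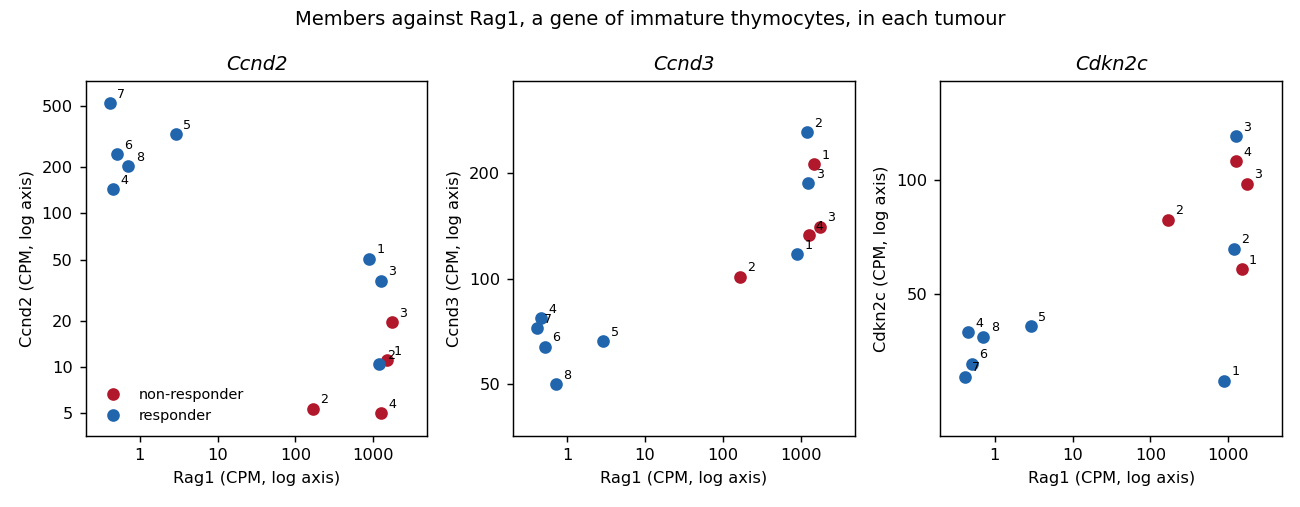
Levels of Ccnd2, Ccnd3 and Cdkn2c (vertical axes, CPM, log) against Rag1 (horizontal axes, CPM, log) in each tumour, numbered within its group. The 5 responders with Rag1 below 3 CPM have Ccnd2 at 143 CPM or more and Ccnd3 at 77.3 CPM or less, and responder 1 has Cdkn2c at 29.4 CPM although its Rag1 is at 895 CPM.

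Ordered by mean level per kilobase over the 12 tumours, Cdk4 came first at 56.2 ± 17.4 CPM per kilobase (SD, n = 12) and was above Cdkn2c in 12 of 12 tumours. Cdkn2c (23.4 ± 12.9), Cdkn1b (18.7 ± 6.46), Ccnd3 (14.1 ± 7.58), Ccnd2 (14.0 ± 17.4), Rb1 (13.5 ± 7.16) and Cdk6 (12.0 ± 14.1) followed, with Ccnd1 last at 8.02 ± 5.41 CPM per kilobase. The neighbours below Cdk4 differed by less than their SD, and each stood above the next in only 5 to 9 of the 12 tumours. In non-responders alone Ccnd2 came last, at 1.09 ± 0.728 CPM per kilobase (SD, n = 4), and was below Ccnd1 in 4 of 4. In responders alone Ccnd2 came second, at 20.4 ± 18.3 CPM per kilobase (SD, n = 8). The lengths are those of GENCODE M21 and not those used in counting, and with the longest transcript as the length Ccnd3 moved to the second place over the 12 tumours, at 32.0 ± 17.2 CPM per kilobase.

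The genes with the most similar pattern to each D cyclin were named by Pearson's r of log2 CPM over the 12 tumours, as a description of libraries that fall into clusters. For Ccnd2 they were Cisd3 (r = 0.958), the focal adhesion gene Tes (r = 0.957), the RUNT-domain factor gene Runx2 (r = 0.956), Klk10 (r = 0.950) and Zfp119a (r = 0.949). Tes was at 3.18 to 8.14 CPM in non-responders and 4.22 to 157 CPM in responders, and Runx2 at 0.441 to 1.61 CPM in non-responders and 0.864 to 43.0 CPM in responders. Klk10 was near the floor, at 0 to 0.046 CPM in non-responders and 0.041 to 1.90 CPM in responders, so its r rests on few reads. For Ccnd3 they included Ift57 (r = 0.958), Arid2, a subunit gene of a SWI/SNF remodeller (r = 0.955), Arhgef10l (r = 0.955) and Nipbl, the cohesin loader gene (r = 0.952). Arhgef10l was at 48.4 to 89.0 CPM in non-responders and 6.94 to 300 CPM in responders. For Ccnd1 they were Lrfn1 (r = 0.919), Gprasp1 (r = 0.911), Tor1aip2 (r = 0.897), Tbc1d19 (r = 0.894) and Dnajc15 (r = 0.874).

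Among 65 other genes of the pathway in 8 lists, all of which were tested, edgeR's quasi-likelihood test called none at an adjusted p under 0.05, and it called 0% of all 18612 genes. At an unadjusted p under 0.05 there were 15 of the 65, 10 higher and 5 lower in non-responders, or 23.1% where all genes gave 23.8% (7.73% higher and 16.1% lower). DESeq2 called 7 (10.8%, against 13.3% of all genes, 2.82% higher and 10.5% lower). These were E2f6 and the NOTCH target Hes1, singled out after its values were seen, as higher, and Il7r, Pim1, E2f5, Fbxw8 and Mycn as lower. Limma-voom called 14 (21.5%, against 8.85% of all genes, 4.37% higher and 4.48% lower), 10 higher and 4 lower. Of the 65 fold changes 48 were above 0, with a median of 0.30. Of all 18612 genes 9023 were above 0, with a median of -0.02. The genes named next had the lowest p of their list and are values, not calls.

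E2f5, which encodes an E2F that works with the pocket proteins as a repressor, was the only one of the 65 whose groups did not overlap, a smaller share than the 2.13% of all tested genes. It was at 4.61 ± 0.660 CPM in non-responders and 8.24 ± 0.893 CPM in responders (SD, n = 4 and 8), and its fold change was -0.84 on the log2 scale (SE 0.21, edgeR adjusted p = 0.117). Of the 10 E2F and DP genes, 8 had fold changes above 0, among them the repressors E2f6 at 0.63 (SE 0.20, edgeR adjusted p = 0.118) and E2f7 at 0.76 (SE 0.34, edgeR adjusted p = 0.202). Of 16 E2F targets of the G1/S transition, 15 had fold changes above 0 with a median of 0.36, and the ribonucleotide reductase gene Rrm2 was at 223 ± 101 CPM in non-responders and 124 ± 47.9 CPM in responders (0.85, SE 0.31, edgeR adjusted p = 0.135). Mcm7, of the replicative helicase, had a log2 fold change of 0.72 and Tk1, thymidine kinase, of 0.56. The 10 T-cell markers were also all above 0 in these fold changes, and the part of tumour cell content in the E2F targets was not tested.

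Of the genes of cyclins E and A with CDK2, 4 of 5 were above 0, with Cdk2 at 0.56, Ccna2 at 0.48 and Ccne2 at 0.42. The CDK-activating kinase genes Cdk7, Mnat1 and Ccnh were at 0.40, 0.23 and -0.13. The pocket protein genes Rbl1 and Rbl2, relatives of Rb1, were at 0.20 and -0.25. Of the other inhibitors, Cdkn1a, the p53 target encoding p21, was at 3.79 ± 3.77 CPM in non-responders and 6.70 ± 4.78 CPM in responders (-0.82, SE 0.77, edgeR adjusted p = 0.531), with Cdkn1c at 0.57 and Cdkn2b at -0.23.

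Among 10 genes of D-cyclin and p27 turnover, 7 had fold changes above 0. Of these genes, Fbxw8, which encodes an F-box protein reported to target cyclin D1, was at 12.1 ± 8.58 CPM in non-responders and 36.4 ± 16.1 CPM in responders (-1.60, SE 0.53, edgeR adjusted p = 0.122). Fbxo4, another F-box gene, was at -0.92 and Gsk3b, whose kinase marks cyclin D1 for export and decay, at 0.52. Of 17 upstream regulators in T cells, 10 had fold changes above 0 and 7 below, and 4 and 3 of these had an unadjusted p under 0.05 in edgeR. The 4 above 0, singled out after their values were seen, were the receptor genes Notch1 at 2.48 and Notch3 at 1.32, Hes1 at 1.70 and the repressor gene Gfi1 at 1.10, with edgeR adjusted p of 0.147, 0.190, 0.121 and 0.136. Notch1 was at 3258 ± 2699 CPM in non-responders and 584 ± 736 CPM in responders (SD, n = 4 and 8). Its responder values were skewed, with 73.4, 120 and 1906 CPM as the lowest, median and highest. Whether these upstream regulators differed with Rag1 among the responders was not tested. Il7r, the receptor gene of interleukin 7, was at 20.2 ± 11.6 CPM in non-responders and 242 ± 271 CPM in responders (-3.58, SE 0.98, edgeR adjusted p = 0.117). Pim1, a kinase gene downstream of STAT5, was at 14.7 ± 3.89 CPM in non-responders and 30.4 ± 9.87 CPM in responders (-1.05, SE 0.30, edgeR adjusted p = 0.117), and Mycn was barely detected, at 0.0454 to 0.0918 CPM in non-responders and 0.0822 to 4.20 CPM in responders.

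**Figure D4:**
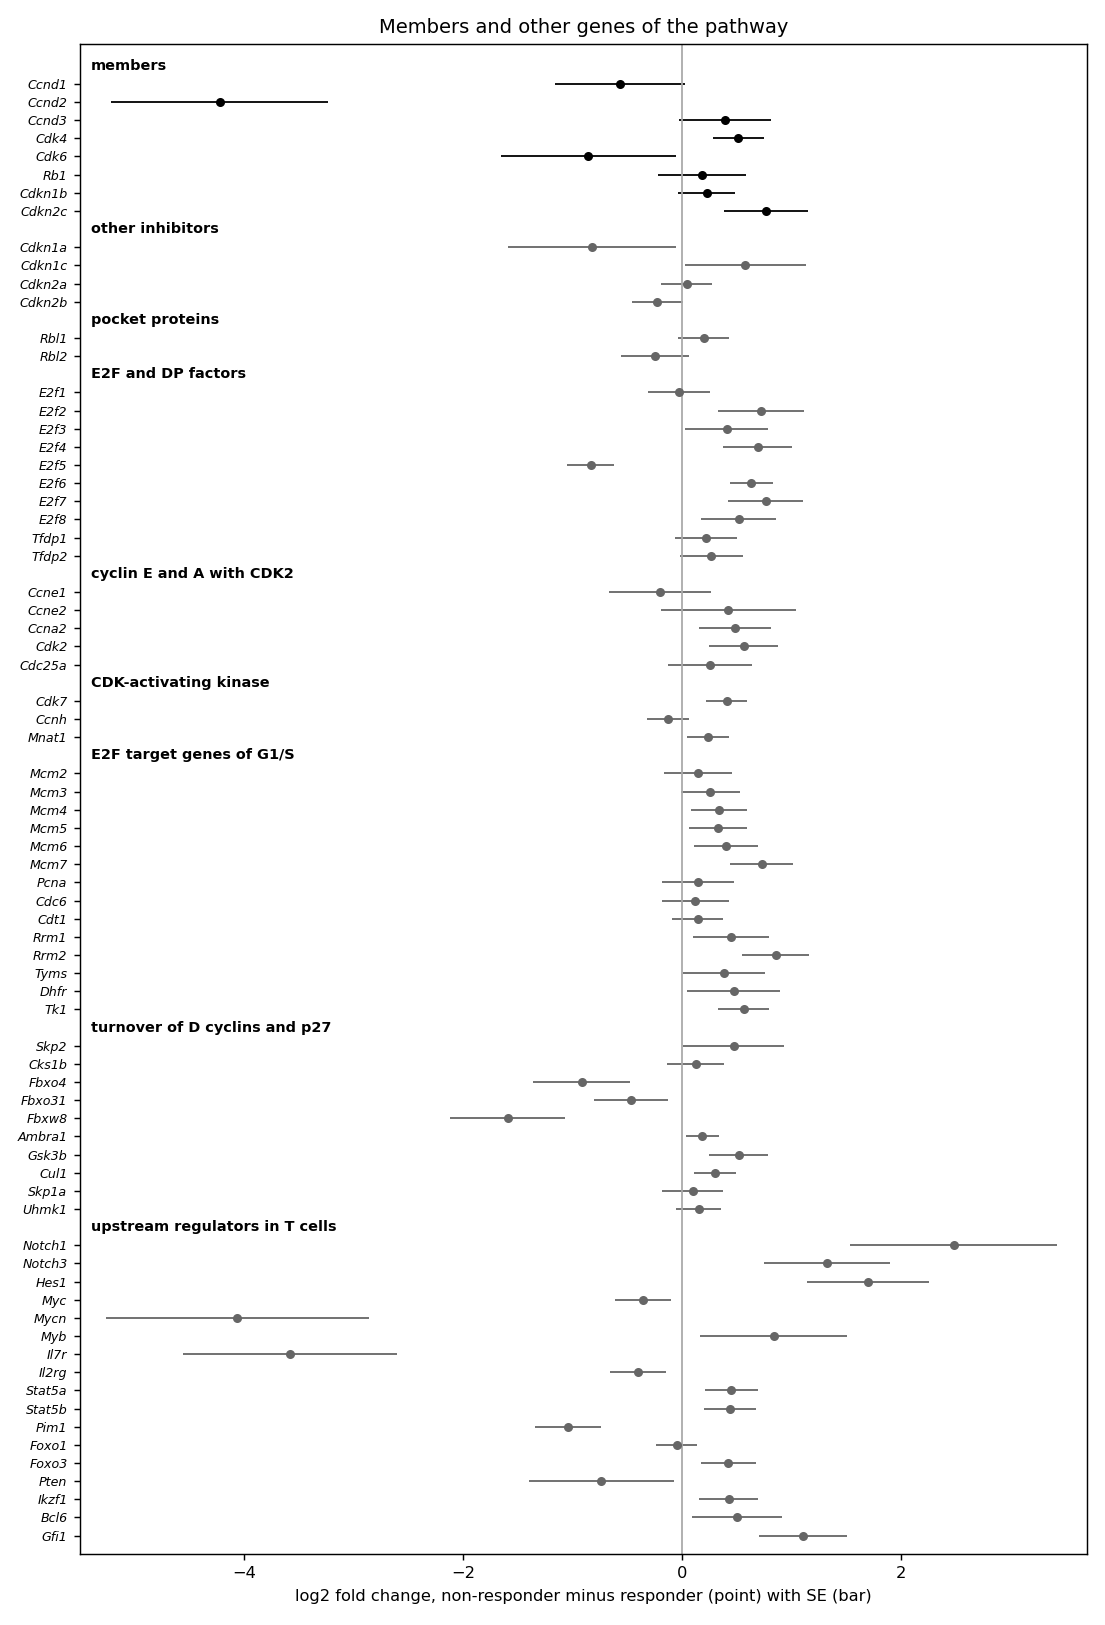
Log2 fold change, non-responder minus responder, with its SE as a bar, for the 8 members (black) and the 65 other genes of the pathway by list (grey, each gene under the first list that holds it). Ccnd2 at -4.22 and Il7r at -3.58 lie far to the left, as does Mycn, whose fitted value depends on the prior count, Notch1 at 2.48 lies farthest to the right, and no grey gene passed the edgeR threshold.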

How the data were processed

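The deposited table holds raw counts per Ensembl gene for 12 tumours, made with HTSeq per the submitters' processing notes, which also name DESeq and NCBIM37. The labels' extract protocol states mm10, so the build is not settled. The aligner and the strand setting were not given in the sources used. Per the labels' protocols, TruSeq mRNA libraries were read as paired ends. Symbols, lengths and coordinates come from GENCODE M21 (GRCm38), matched by identifier for 32919 of 37991 genes.

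Counts were filtered with filterByExpr, scaled by TMM and tested in edgeR 4.0.16 (R 4.3.3) by the robust quasi-likelihood F test with the response label as the sole term, Benjamini-Hochberg adjustment over 18612 genes and a threshold of 0.05. For log2 CPM the prior count was 2. Standard errors come from the F statistic. The alternatives were RLE scaling, no filter, limma-voom 3.58.1, DESeq2 1.42.0, each tumour left out, both scores as covariates, other lengths and a prior count of 0.5. The fits were tested on simulated data. There edgeR called 5 of 50 genes set 2-fold apart and 21 of 50 set 4-fold apart. It called 44 of 50 at 8-fold and 47 of 50 at 16-fold, and 4 of 18412 set without a difference. In the tumours themselves edgeR called 0 of 18612 genes. Whether these rates apply to tumours that fall into clusters, as these did on Rag1, was not tested. No pair of libraries was a repeat (chi-square per degree of freedom at least 58.8). The labels call the tumours independent samples, and tumours are numbered in accession order. Named pathway genes are up to 3 with the lowest p per list, and the 5 genes most like each D cyclin are given, except 1 that is not reported here. Members and lists were chosen with earlier results of these data known.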

Additional observations from a re-analysis of the deposited data

Results flagged for a closer look

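Among 22 groups of values checked (16 of CPM and 6 of D-cyclin shares), 3 held a tumour far from the others of its group, by a gap to the nearest tumour that took up most of the range of the group. Chance gives this in about 1 in 20 groups of independent, normally distributed values, which CPM and shares of clustered tumours need not be. Rb1 was at 184 CPM in responder 2, with a gap of 0.731 of the range. Cdkn1b was at 164 CPM in non-responder 1, with a gap of 0.885 of the range. Cdkn2c was at 131 CPM in responder 3, with a gap of 0.640 of the range.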

How the results depend on the processing

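The number of genes called at an adjusted p under 0.05 was 0 in edgeR, 1647 in limma-voom with quality weights and 2462 in DESeq2, and it ran from 0 to 5 in edgeR with 1 tumour left out (5 without responder 3, 3 without non-responder 1 and 1 without non-responder 3). Of the 65 other genes of the pathway, limma-voom called 14 and DESeq2 7. The log2 fold changes of the members moved by less than the spread between tumours in 140 of 144 cases, and by more in 4. These were -1.73 for Ccnd2 and -0.39 for Ccnd3 with the double-positive thymocyte score as a covariate, and -0.41 for Ccnd3 and 0.014 for Cdk4 with the mean score of other cells; the cause was not tested. A fold change can stay within the spread between tumours and still change sign. Of 18 alternatives per member, the sign turned in 2 for Ccnd3, 1 for Cdk6, 3 for Rb1 and 1 for Cdkn1b. Only those of Ccnd3 were among the 4 larger moves. All 48 alternatives for the D-cyclin shares stayed within the spread between tumours. No paired analysis was possible because the labels give no replicate numbers or pairs. At 20796860 counts or more per tumour, the lowest count of a member was 109, for Ccnd2 in non-responder 2.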
